A study of Mus musculus with 2 samples.

Results

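The mouse mitochondrial genome encodes 37 of the 55536 annotated genes measured here, and the description below covers those 37. The members are all genes whose symbol starts with mt-, a rule that uses no measured value. They comprise 13 messages for subunits of the respiratory chain and of ATP synthase, 2 ribosomal RNAs (rRNAs) and 22 transfer RNAs (tRNAs). RNA was taken from the cytosolic fraction of bone marrow-derived macrophages, primary cells of mouse strain C57BL/6J, and ribosomal RNA was removed before total RNA sequencing. The cells had 12 h of lipid A at 100 ng/ml, a wash and 12 h without it, and then 75 min of lipid A at 100 ng/ml. Lipid A is the part of bacterial lipopolysaccharide that activates the receptor TLR4. All libraries share this treatment and form 1 group with 2 biological replicates, and libraries of untreated cells or of cells treated 1 time were not analysed here. Age and sex of the animals were not collected, and both replicates carry the same donor code, so differences between them may be technical. P-values between them reflect counting error, alone or with an assumed variation, and estimate no spread between samples.

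The libraries held 64257973 and 49485163 expected counts over all features in replicates 1 and 2, of which the 37 genes held 121982 and 166609. Replicate 1 is the deeper library, and replicate 2 holds more counts of these genes and so has the smaller relative counting error for them. All 8 macrophage markers were detected, here meaning 1 TPM or more in both replicates (TPM is a length-corrected share of a library's transcripts). Of 18 markers of other blood, stromal and endothelial cells, 2 were detected, S100a8 and S100a9 of neutrophils. The 18 summed to 5.99 and 13.1 TPM, and 5 of them were at 0, among them Cd2 of T cells and Ly6g of neutrophils. The cytosolic label was read against nuclear RNAs: Malat1 of nuclear speckles stood at 132 and 384 TPM in replicates 1 and 2, and Neat1 of paraspeckles at 7.96 and 29.7. Of the other 3 on that list, Xist, which coats the inactive X chromosome, stood at 1.62 and 1.27, Kcnq1ot1 at 0.01 in each and Meg3 at 0.

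Mitochondrial DNA is transcribed on both strands into long RNAs that cover most of the circle. Transfer RNAs lie between many of the messages, and cutting them out at both ends frees the messages and ribosomal RNAs, which is known as tRNA punctuation. The messages are translated inside the organelle on its own ribosomes, and their products are assembled with subunits that the nucleus encodes and the cytosol supplies. Pieces of mitochondrial DNA have also been inserted into nuclear chromosomes during evolution, and annotations list such copies as pseudogenes.

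The annotation showed this layout on the mitochondrial chromosome of the mm10 assembly. A tRNA, on either strand, lay within 3 bases of the 5′ end of 9 of the 13 messages and within 3 bases of the 3′ end of 8. Of the 13, 9 start with ATG and 10 end in a full stop codon, while mt-Co3, mt-Nd4 and mt-Cytb end in a lone T, which polyadenylation is known to complete to a stop. mt-Atp8 and mt-Atp6 overlap by 43 bases, mt-Nd4l and mt-Nd4 by 7, and mt-Nd5 and mt-Nd6 by 14 on opposite strands. No tRNA lies between mt-Atp8 and mt-Atp6 or between mt-Nd4l and mt-Nd4. Each message here is an annotated gene, and levels within these pairs are not shown to be those of separate RNAs. By convention 28 of the genes belong to the heavy strand and 9 to the light strand, the latter being mt-Nd6 and 8 tRNAs.

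Near-identical nuclear copies decide how the counts of 6 messages can be read. Among annotated genes off the mitochondrial chromosome, 17 aligned to a mitochondrial gene with at least 90% identity over at least 100 bases. Of these, 7 form a run on the minus strand of chromosome 1, from 24611535 to 24616197, in which copies of mt-Co1, mt-Co2, mt-Atp6, mt-Co3, mt-Nd3, mt-Nd4l and mt-Nd4 follow each other in mitochondrial order. Only annotated genes were searched, so an unannotated copy, for example of mt-Atp8 between Gm28661 and Gm10925, would be missed. Gm28661 matches mt-Co2 over 681 bases with 0 substitutions, and Gm10925 matches mt-Atp6 over 678, Gm28437 matches mt-Co3 over 783 and Gm10222 matches mt-Nd4l over 294, also with 0. Gm28439 matches the first 876 bases of mt-Nd4 with 0 substitutions. Gm29216 covers the last 492 bases of mt-Co1 and differs at 6 positions, all among its first 13 bases. The sequences of mt-Co2, which encodes the copper-binding subunit of cytochrome c oxidase, show how close the copies come. Each is given 5′ to 3′ over the same 120 bases, at chrM:7457-7576 on the plus strand, chr1:24615002-24615121 on the minus strand and chr2:22587411-22587530 on the minus strand of mm10, and capitals mark bases that differ from mt-Co2.
mt-Co2: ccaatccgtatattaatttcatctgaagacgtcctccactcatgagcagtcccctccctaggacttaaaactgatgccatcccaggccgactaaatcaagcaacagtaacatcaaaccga
Gm28661: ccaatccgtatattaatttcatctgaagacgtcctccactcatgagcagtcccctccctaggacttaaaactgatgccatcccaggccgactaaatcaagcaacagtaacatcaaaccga
Gm13341: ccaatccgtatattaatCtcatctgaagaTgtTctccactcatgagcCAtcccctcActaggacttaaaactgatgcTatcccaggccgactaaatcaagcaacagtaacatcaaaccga
The chromosome 1 copy has 0 capitals in this stretch and the chromosome 2 copy has 7. Over its whole length the chromosome 2 copy Gm13341 has 16 substitutions, and it received 4.16 and 3.08 counts in replicates 1 and 2, while Gm28661 received 17149 and 24173.

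Where a copy has no substitution, only the bases past its annotated end set the annotated copy apart from the message. Whether the chromosome 1 sequence goes on with the same bases was not examined. The last 40 bases of 4 messages are shown for that reason, with capitals for the bases that the annotated copy lacks. They lie at chrM:7657-7696, chrM:8568-8607, chrM:9351-9390 and chrM:10134-10173 on the plus strand of mm10.
mt-Co2 end: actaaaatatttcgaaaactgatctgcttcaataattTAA
mt-Atp6 end: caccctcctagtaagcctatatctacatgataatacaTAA
mt-Co3 end: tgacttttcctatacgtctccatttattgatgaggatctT
mt-Nd4l end: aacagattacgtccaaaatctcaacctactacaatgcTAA
The annotated copies stop before the stop codon of mt-Co2, mt-Atp6 and mt-Nd4l, 3 bases short, and 1 base short of the end of mt-Co3. mt-Nd3, a membrane subunit of complex I, differs from Gm28438 by 1 substitution, T3C (the base of mt-Nd3, its position counted from 1 at the start of mt-Nd3, and the base of the copy). The first 33 bases of each, at chrM:9459-9491 on the plus strand and chr1:24613087-24613119 on the minus strand of mm10, carry it as the capital.
mt-Nd3: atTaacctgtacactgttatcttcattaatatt
Gm28438: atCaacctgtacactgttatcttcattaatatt
No other base differs over the 345 bases of Gm28438.

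The counts of the 6 messages were divided with their copies, and the division differed between estimates. Together the 6 copies with counts held 42.6% and 41.8% of the expected counts of the 6 pairs in replicates 1 and 2. mt-Co2 was given 0 and 213 expected counts against the 17149 and 24173 of Gm28661. For the same gene the quantifier's posterior mean count, an average over the allocations it sampled, was 2498 with a posterior SD of 967 in replicate 1 and 2836 with 1065 in replicate 2. Its deposited credibility interval ran from 16.4 to 78.2 TPM in replicate 1 and from 28.3 to 123 in replicate 2, above the deposited TPM of 0 and 5.10. The 0 in replicate 1 is thus an allocation, and the deposited interval for that library lies above 0.

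The message of mt-Atp6, a subunit of the proton channel of ATP synthase, received 859 and 1469 expected counts, and Gm10925 received 11412 and 13960. A second estimate, made from the reads without that alignment and called read-based here, gave 12802 and 15643 to mt-Atp6 and 204 and 1007 to Gm10925. The copy of mt-Atp6 thus held 93.0% and 90.5% of the pair's counts in one estimate and 1.58% and 6.07% in the other. mt-Nd4l, a small membrane subunit of complex I, had 685 and 874 expected counts beside 724 and 1197 for Gm10222, while the read-based table gave the copy 0 in both libraries. mt-Co3, a core subunit of cytochrome c oxidase, had 2106 and 3174 beside 13708 and 19471 for Gm28437.

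mt-Nd3 turned around between the replicates. It was given 780 and 338 expected counts and Gm28438 was given 400 and 1270, so the copy held 33.9% of the pair in replicate 1 and 79.0% in replicate 2. The sums of the pair were 1180 and 1608. mt-Co1, the catalytic subunit of cytochrome c oxidase, had the lowest share on a copy of the 6 by expected counts, with 60882 and 86004 expected counts beside 5151 and 6094 for Gm29216, or 7.81% and 6.62% of the pair on the copy. By read-based counts the copy of mt-Co1 held 9.41% and 7.20%, above the copies of mt-Atp6 and mt-Nd4l.

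**Figure D1:**
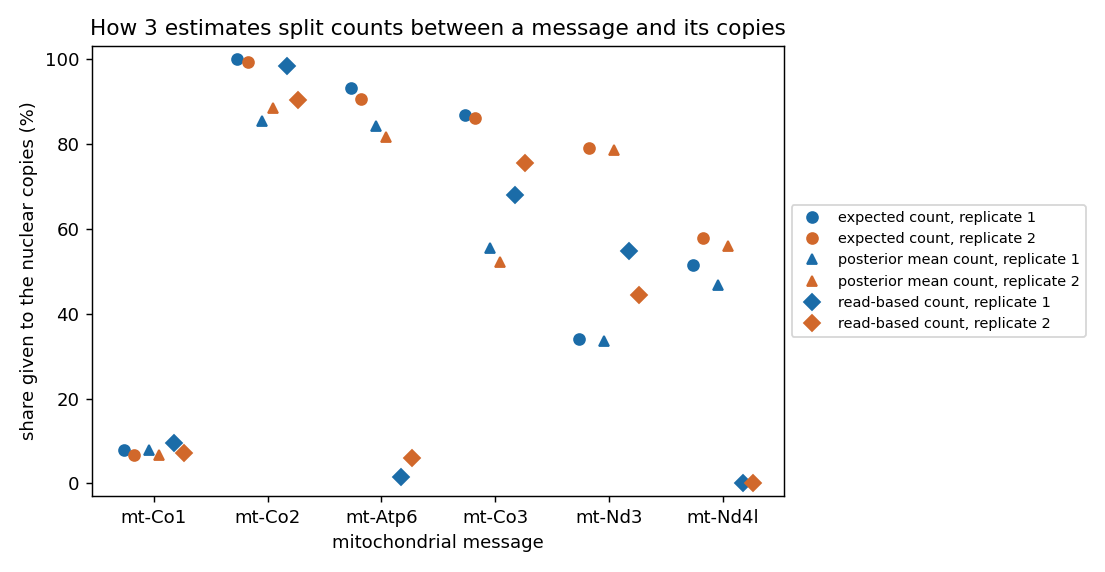
Share of the counts of each message and its nuclear copies that was given to the copies, in percent, for the 6 messages with a copy that holds counts. Circles are expected counts, triangles posterior mean counts and diamonds read-based counts, in blue for replicate 1 and orange for replicate 2; the circles and diamonds of mt-Atp6 stand at 93.0% and 90.5% against 1.58% and 6.07%.

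Adding each copy to its message removed most of these differences between estimates. For the 7 messages with no copy holding counts (mt-Nd1, mt-Nd2, mt-Atp8, mt-Nd4, mt-Nd5, mt-Nd6 and mt-Cytb), the read-based count was 1.04 to 1.14 times the expected count over both replicates. For the other 6 the ratio ran from 0.709 to 14.9, leaving out mt-Co2 in replicate 1, whose expected count is 0. With copies added it ran from 1.03 to 1.31 for these 6, mt-Co2 in replicate 1 included. The posterior SD was 0% to 0.0409% of the posterior mean for the 7 messages and 0.139% to 44.8% for the 6. Of the 15 mitochondrial genes with a mean posterior count of at least 10, 5 had a posterior SD of at least 10% in both replicates, against 3.74% of all genes so counted. A posterior mean at least 2-fold from the expected count in both replicates (each count + 1) was found for 2 of the 15, against 0.225% of all genes. Of 19 mitochondrial genes with a mean count of at least 10 in either table, 8 differed at least 2-fold between the tables in both replicates, against 13.8% of all genes, and nothing is read from that count. In it, 4 are tRNAs that the gene tables list at 0 for want of an effective length, 1 is mt-Rnr2, and 3, mt-Co2, mt-Atp6 and mt-Nd4l, have a copy that holds counts.

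Levels of the messages were therefore read both alone and with copies. Alone, 12 of the 13 reached a TPM of 1 in both replicates, mt-Co2 being the exception, where 16.7% of all annotated genes did. A TPM of 100 in both was reached by 5 alone and by 9 with copies, against 0.727% of all annotated genes. With copies the lowest was mt-Nd2, a membrane subunit of complex I, at 45.1 and 70.5 TPM in replicates 1 and 2. The highest was mt-Atp8, a small subunit of ATP synthase, at 597 and 1043.

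The 3 messages of complex IV, cytochrome c oxidase, stood together once their copies were added. mt-Co1 went from 410 and 709 TPM alone to 579 and 961 with its copies. Nearly all of that rise is the TPM of Gm29216, 169 and 252, which rests on the 492 bases of that copy. By expected counts the copies held only 7.81% and 6.62%, so summing TPM of unlike lengths raises mt-Co1 more than its counts do. mt-Co2 went from 0 and 5.10 to 332 and 586, and mt-Co3 from 33.3 and 62.1 to 251 and 444. In each library the order was mt-Co1, mt-Co2, mt-Co3 with copies, and mt-Co1, mt-Co3, mt-Co2 alone.

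Complex V, ATP synthase, has 2 mitochondrial genes counted as messages, mt-Atp8 and mt-Atp6, which lie on overlapping sequence. Their values are estimates per annotated gene and are not shown to be levels of separate RNAs. mt-Atp6 went from 16.6 and 35.3 TPM alone to 239 and 373 with its copy. The whole of mt-Atp8, at chrM:7766-7969 on the plus strand of mm10, is printed to show how short it is, with the 43 bases that it shares with mt-Atp6 in capitals.
mt-Atp8: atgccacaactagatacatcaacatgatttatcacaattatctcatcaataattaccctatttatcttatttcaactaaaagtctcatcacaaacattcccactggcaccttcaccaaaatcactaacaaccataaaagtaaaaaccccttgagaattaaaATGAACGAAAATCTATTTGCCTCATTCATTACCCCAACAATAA
At 204 bases it was assigned an effective length, the number of start positions a fragment can take, of 22.8 and 21.3 bases in the gene tables and of 47.7 and 52.9 in the read-based tables. Its counts were 1525 and 2047 in the gene tables and 1651 and 2278 in the read-based tables, yet its TPM was 597 and 1043 in the first and 163 and 185 in the second. Per kilobase of annotated length, without an effective length, mt-Co1 with its copies had 5.72 and 5.94 times the expected counts of mt-Atp8. The top place of mt-Atp8 on the TPM scale of the gene tables was thus not kept per annotated length.

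Complex I, the NADH dehydrogenase, takes 7 of the messages. With copies their medians were 88.6 and 143 TPM. mt-Nd1, which lines the quinone site, stood at 112 and 178, mt-Nd4 and mt-Nd5, antiporter-like membrane subunits, at 88.6 and 143 and at 86.6 and 143, and mt-Nd3 at 79.7 and 142 with its copy. mt-Nd4l stood at 145 and 280 with its copy and at 69.5 and 116 alone. mt-Cytb, cytochrome b and the lone mitochondrial subunit of complex III, stood at 106 and 167.

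mt-Nd6 is the only message of the light strand, and its level lay among those of the heavy strand. It stood at 102 and 179 TPM. On the log2(TPM + 0.1) scale it was 0.44 above the median of the 12 heavy-strand messages alone (0.40 and 0.48 in the replicates), and 0.32 below it with copies added, at -0.32. Its sequence differs in composition: it is 28.1% G, while the 12 heavy-strand messages range from 5.88% to 16.1% G. Strandedness of the counting is not given in the sources used here, so reads of mt-Nd6 and of RNA antisense to it cannot be told apart.

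The order of messages by share of the mitochondrial message TPM, copies added, was close in the 2 libraries. mt-Atp8 held 21.9% ± 0.388 (SD, n = 2), mt-Co1 20.7% ± 0.384, mt-Co2 12.2% ± 0.306, mt-Co3 9.25% ± 0.253, mt-Atp6 8.29% ± 0.513 and mt-Nd4l 5.60% ± 0.490. These 6 were the highest in each library and in that order. The place of mt-Nd4l was not kept per kilobase of annotated length. There it had 4744 and 6973 expected counts with its copy, below mt-Nd1 at 9688 and 12486. mt-Nd1 followed at 3.92% ± 0.196, mt-Nd6 at 3.75% ± 0.0742 and mt-Cytb at 3.69% ± 0.216. mt-Nd6 and mt-Cytb differed by less than the SD of mt-Cytb and changed places between the libraries, while mt-Nd1 was above mt-Cytb in both. mt-Nd6 also changed places with mt-Nd1, at 3.70% and 3.81% beside 4.06% and 3.78% in replicates 1 and 2. mt-Nd4, mt-Nd5 and mt-Nd3 held 3.12% ± 0.118, 3.08% ± 0.0777 and 2.95% ± 0.0894 and kept that order in both libraries, though mt-Nd4 and mt-Nd5 differed by less than either SD. mt-Nd2 was the lowest at 1.57% ± 0.0965. Per kilobase of annotated length mt-Nd3 with its copy was lower, at 3391 and 4621 expected counts beside 3987 and 5063 for mt-Nd2. In the read-based tables mt-Atp8 held 11.1% ± 0.501 and mt-Co1, at 25.3% ± 0.267, and mt-Co2, at 13.5% ± 0.609, lay above it. On both scales the share of mt-Co1 includes the TPM of Gm29216, which rests on the 492 bases of that copy.

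**Figure D2:**
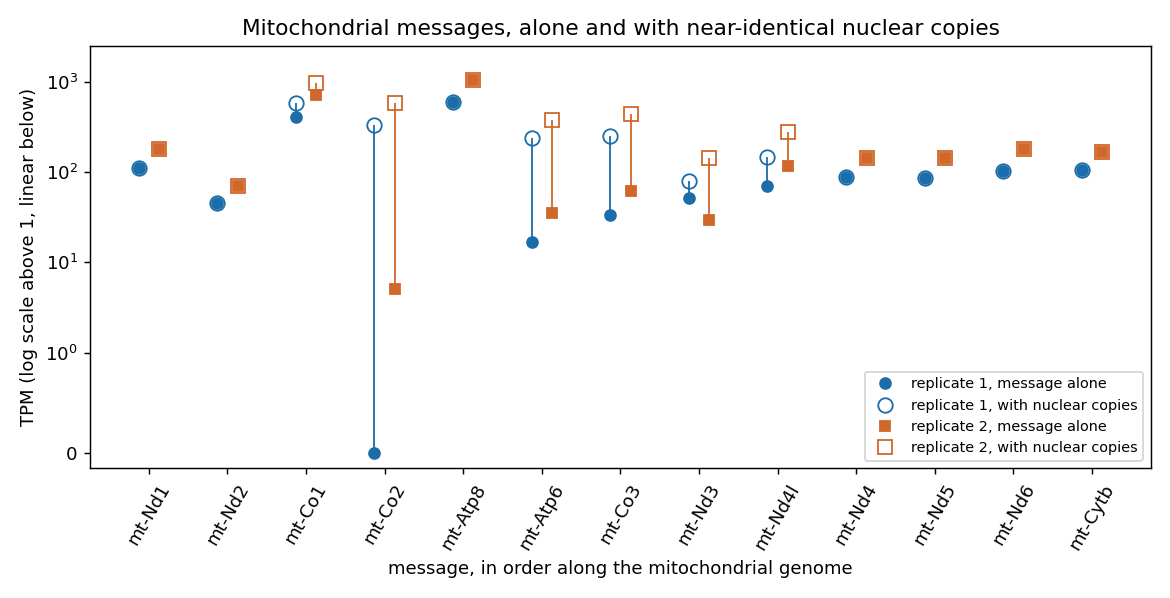
TPM of the 13 messages in genome order, on an axis that is logarithmic above 1 and linear below, in replicate 1 (blue circles) and replicate 2 (orange squares). Filled marks are the message alone and open marks the message with its nuclear copies; mt-Co2 moves from 0 and 5.10 to 332 and 586, and the 7 messages without a copy holding counts do not move.

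The 2 ribosomal RNAs had low counts, in libraries that had been depleted of ribosomal RNA. mt-Rnr1, of the small ribosomal subunit, had 123 and 206 expected counts and 1.49 and 3.08 TPM in replicates 1 and 2. mt-Rnr2, of the large subunit, had 89 and 128 counts and 0.58 and 1.03 TPM. Together they held 0.174% of the mitochondrial gene counts in replicate 1 (exact Clopper-Pearson 95% interval 0.151 to 0.199) and 0.2005% in replicate 2 (0.180 to 0.223), intervals that cover counting error only. In the read-based tables mt-Rnr1 had 187 and 427 counts, mt-Rnr2 had 270 and 716, and their share was 0.308% and 0.554%. mt-Co1 alone held 49.9% and 51.6% of the mitochondrial gene counts.

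All 22 tRNAs were listed at 0 in the gene tables. They are 59 to 75 bases long and were given an effective length of 0 there, as were 4856 annotated genes in all, of which 11 hold any count, so that a listed 0 is no measured absence. The labels give the libraries a size range of 250 to 400. The read-based tables, which assign them effective lengths of 14.6 to 20.5 bases, gave the 22 tRNAs 153 and 209 counts in all.

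Nearly all read-based tRNA counts belonged to the light strand. Its 8 tRNAs held 145 of 153 counts in replicate 1, or 94.8% (exact 95% interval 89.96 to 97.7), and 196 of 209 in replicate 2, or 93.8% (89.6 to 96.6). The 14 heavy-strand tRNAs held 8 and 13, no single one above 4, and 7 of them had 0 in both libraries, which allows up to 3 counts each, or 0.0408 and 0.0489 CPM (counts scaled to a fixed library total). The median count was 9 and 13 on the light strand and 0 and 0 on the heavy strand. The 4 tRNAs with at least 10 counts in both libraries are all of the light strand and are printed with their anticodon in capitals. They lie on the minus strand of mm10 at chrM:15356-15422, chrM:6870-6938, chrM:14071-14139 and chrM:5192-5257.
mt-Tp: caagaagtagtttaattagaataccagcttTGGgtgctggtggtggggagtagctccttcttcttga
mt-Ts1: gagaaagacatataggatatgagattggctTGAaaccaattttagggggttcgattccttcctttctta
mt-Te: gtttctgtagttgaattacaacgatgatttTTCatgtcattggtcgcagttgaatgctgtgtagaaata
mt-Tc: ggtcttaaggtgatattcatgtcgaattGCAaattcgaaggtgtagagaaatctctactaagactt
mt-Tp, the proline tRNA, had 90 and 112 counts, more than the other 21 together. mt-Ts1, a serine tRNA that follows mt-Co1 on the opposite strand, had 13 and 31. mt-Te, the glutamate tRNA beside mt-Nd6, had 16 and 17, and mt-Tc, the cysteine tRNA, had 12 and 14. mt-Tn and mt-Ty, for asparagine and tyrosine, had 6 and 12 and 6 and 8. Since strand use in the counting is not given, these counts cannot be told apart from those of RNA transcribed across the same bases on the heavy strand.

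**Figure D3:**
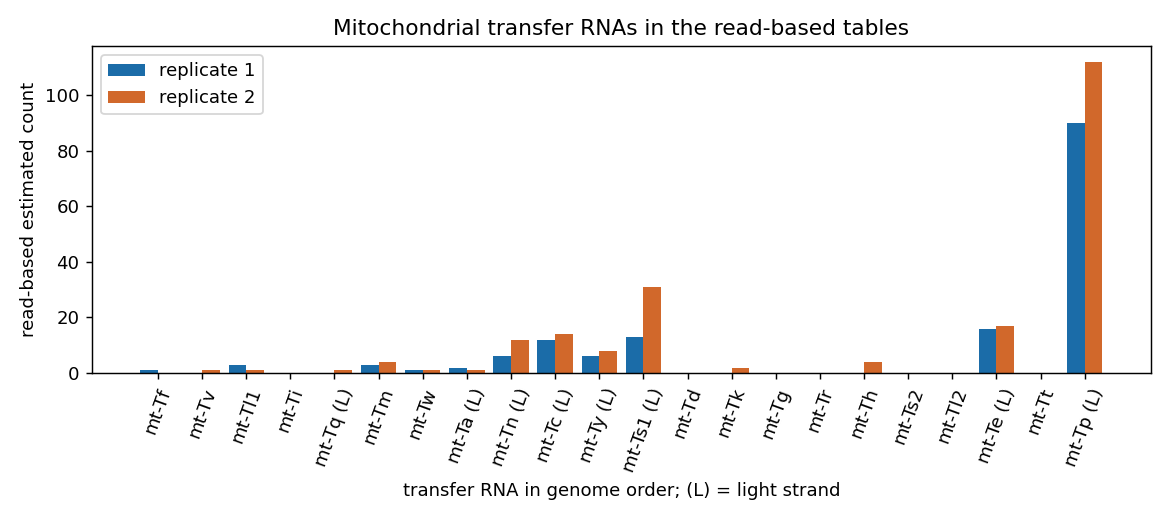
Read-based estimated counts of the 22 tRNAs in genome order, in replicate 1 (blue bars) and replicate 2 (orange bars), with (L) for the light strand. The tallest bars are those of mt-Tp at 90 and 112, and no heavy-strand tRNA is above 4.

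Mitochondrial RNA took a larger share of replicate 2 than of replicate 1. The 37 genes held 0.190% of all expected counts in replicate 1 (exact 95% interval 0.189 to 0.191) and 0.337% in replicate 2 (0.335 to 0.338), and with copies 0.265% and 0.470%. In these bulk libraries fewer mitochondria in the fraction and less RNA in each cannot be told apart. The copies held 28.5% and 28.4% of the counts of members and copies together. Their counts are largely an allocation of reads from sequence shared with the messages, so no separate movement of the copies is read from this.

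The shift was shared by nearly all messages. Alone, 12 of the 13 had a higher TPM in replicate 2, where 31.3% of the 9302 detected genes did, and the same 12, mt-Co2 from a listed 0 among them, were at least 1.5-fold higher, where 2.54% of those genes were. mt-Nd3 was the exception, at 52.3 and 29.3 TPM. With copies all 13 were higher, by 1.56-fold (mt-Atp6) to 1.93-fold (mt-Nd4l), and mt-Nd3 stood at 79.7 and 142. The median log2 ratio of TPM + 1, replicate 2 over replicate 1, was 0.73 for the messages alone and 0.73 with copies, while it was -0.12 over all 9302 genes. In the read-based tables the median was 0.27 alone, against -0.44 over 7965 genes, so the distance from all genes was 0.85 in the gene tables and 0.70 in the read-based tables. With copies all 13 were higher in the read-based tables too, by 1.13-fold to 1.301-fold.

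**Figure D4:**
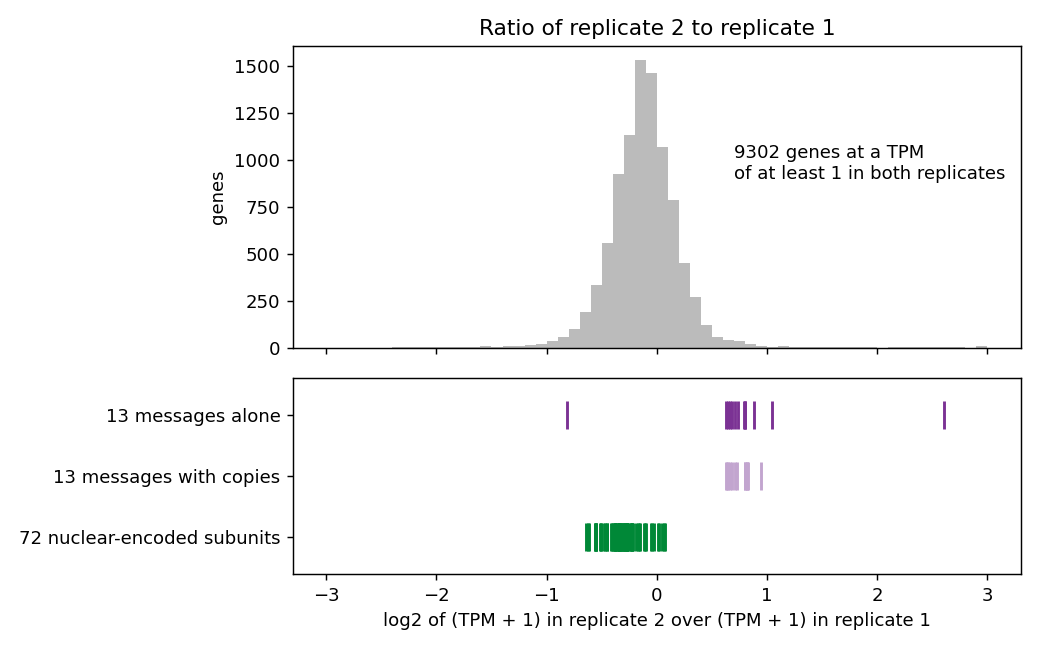
Ratio of replicate 2 to replicate 1 as log2 of (TPM + 1), with the 9302 detected genes as a histogram above and the messages alone, the messages with copies and 72 nuclear-encoded subunits as ticks below. The messages with copies lie between 0.63 and 0.94, the nuclear-encoded subunits between -0.64 and 0.08.

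Of the nuclear RNAs, Malat1 was 2.91-fold and Neat1 3.73-fold higher in replicate 2, Xist was at 0.784 times its replicate 1 value, and the markers of other cell types summed to 5.99 and 13.1 TPM. Their part in the mitochondrial shift was not tested. Set against counting error only, a two-sided exact binomial test over 13298 genes, with library sizes scaled by the trimmed mean of M-values (TMM), called 3 of the 15 mitochondrial genes tested at a fold of at least 2 and an adjusted p under 0.05, against 5.58% of all genes. All 3 were higher in replicate 2, the direction of 3.23% of genes. They were mt-Rnr1 at 2.22-fold (adjusted p = 5.9e-12), mt-Atp6 at 2.27-fold (adjusted p = 2.9e-83) and mt-Co2 with 0 and 213 counts (adjusted p = 1.5e-77), by the exact binomial test with Benjamini-Hochberg adjustment. The call of mt-Co2 rests on the 0 allocated to it in replicate 1: its posterior mean counts were 2498 and 2836, and no fold is given for it alone. The call of mt-Atp6 rests on the division with its copy. Its posterior mean counts were 1952 and 2838 with posterior SDs of 874 and 995, an allocation error that the test leaves out. The test compares these libraries and no condition.

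With copies added, mt-Rnr1 was the 1 gene called of 15, against 5.55% of all genes, 3.2% in its direction. mt-Atp6 was then 1.67-fold and mt-Co2 1.89-fold higher, under the fold threshold like the other messages, whose folds ran up to 1.95 for mt-Nd4l. Of 19 mitochondrial genes tested on read-based counts, 5 were called, against 7.36% of all genes. All 5, mt-Rnr1, mt-Rnr2, mt-Ts1, mt-Co2 and mt-Nd3, were higher in replicate 2, the direction of 4.88% of genes. The calls of mt-Co2 and mt-Nd3 depend on the division with copies. Read-based counts of mt-Co2 were 305 and 2506 alone and 17823 and 25750 with copies. Those of mt-Nd3 were 553 and 931 alone and 1219 and 1676 with its copy. Read-based counts with copies added were not tested. When edgeR's exact test was given an assumed coefficient of variation of 0.2 between replicates, mt-Co2 alone was called, higher in replicate 2, against 1.03% of all genes and 0.692% in that direction. That call rests on the same allocated 0, and mt-Rnr1 had an adjusted p = 0.36.

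The nuclear-encoded subunits of the same complexes gave the mitochondrial messages a scale. All 72 matched partner subunits of complexes I, III, IV and V were detected. In complex I, 36 of them had a median of 26.8 ± 3.27 TPM (SD, n = 2), led by Ndufc2 at 65.9 ± 9.64 and Ndufa1 at 65.6 ± 17.8 and lowest at Ndufb4 with 6.82 ± 2.34, beside 116 ± 38.6 for the 7 mitochondrial messages with copies. In complex III, 9 had a median of 54.4 ± 9.27, led by Uqcrb at 91.6 ± 18.2, beside 136 ± 42.7 for mt-Cytb. In complex IV, 11 had a median of 114 ± 19.6, led by Cox8a at 173 ± 43.2 and Cox4i1 at 171 ± 22.6, beside 459 ± 180 for the 3 mitochondrial messages. In complex V, 16 of 17 listed symbols matched, with a median of 62.6 ± 9.03 and Atp5b, the catalytic beta subunit, highest at 203 ± 2.39, beside 563 ± 205 for the mitochondrial pair. The value of the pair rests in part on mt-Atp8, whose TPM was 597 and 1043 here and 163 and 185 read-based. mt-Atp6 with its copy stood at 239 and 373.

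In each complex the mitochondrial median with copies was above the nuclear one in both libraries. These are levels in the cytosolic fraction, so the comparison also depends on how much mitochondrial RNA that fraction holds. It gives no ratio for whole cells. Without copies this did not hold in complex IV, where the mitochondrial median was 33.3 and 62.1 TPM beside nuclear medians of 128 and 100.25. Over all complexes the median of the messages alone exceeded that of the partners by 1.32 ± 0.77 on the log2(TPM + 0.1) scale, 0.78 in replicate 1 and 1.87 in replicate 2. With copies the difference was 1.68. Between replicates the median log2 ratio of the partners was -0.32, beside -0.12 over all 9302 detected genes and 0.73 for the messages alone. Of the 72 partners, 5 were higher in replicate 2, where 31.3% of all detected genes were. None of the 72 was called by the exact binomial test that called 5.58% of all genes.

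**Figure D5:**
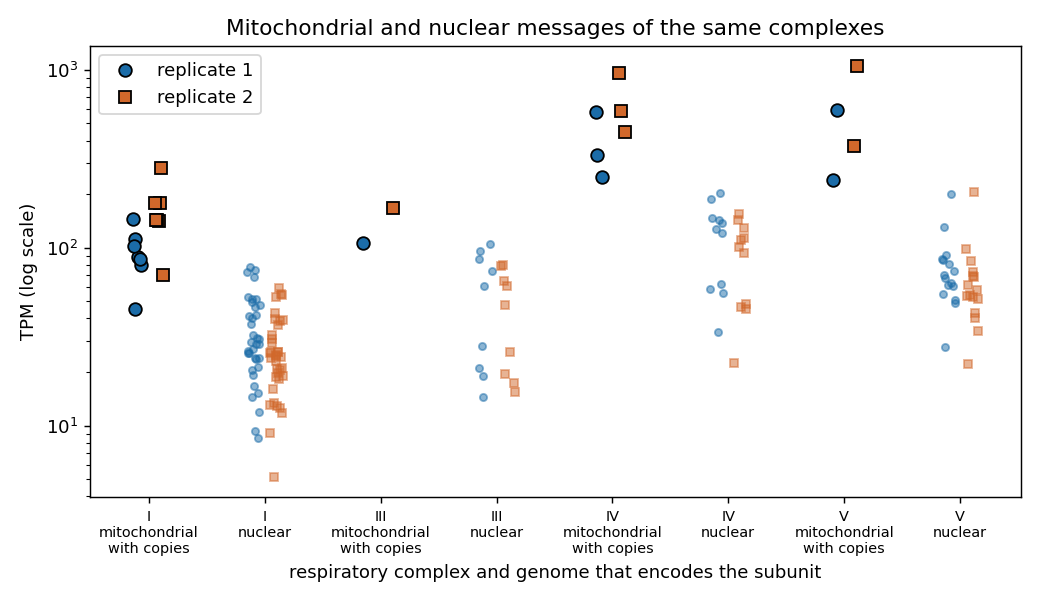
TPM, on a log scale, of mitochondrial messages with copies (large marks) and of nuclear-encoded subunits (small marks) by respiratory complex, in replicate 1 (blue circles) and replicate 2 (orange squares). The medians are 116 against 26.8 in complex I and 459 against 114 in complex IV, as means of the 2 replicates.

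The genes that make, process and translate these RNAs had low list medians, highest for RNA stability and mitochondrial ribosomal proteins. Of 10 transcription genes 7 were detected, with a list median of 2.17 ± 0.244 TPM. Tfam, which packages mitochondrial DNA and opens its promoters, stood at 3.91 ± 0.948 and Polrmt, the mitochondrial RNA polymerase, at 3.53 ± 0.354. Of 8 replication genes 4 were detected, with a median of 1.05 ± 0.145 and Ssbp1, the single-strand DNA-binding protein, highest at 7.54 ± 1.79.

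Of 25 genes for RNA processing and modification 23 were detected, with a median of 2.80 ± 0.120. Hsd17b10, a subunit of the mitochondrial RNase P, led them at 13.2 ± 4.48, followed by Grsf1 of the RNA granules at 11.3 ± 1.03. All 5 genes of stability and decay were detected: Slirp stood at 37.2 ± 8.23 and its partner Lrpprc, with which it stabilises mitochondrial messages, at 5.22 ± 0.233, and the exonucleases Rexo2 and Pnpt1 at 19.0 ± 3.91 and 9.88 ± 0.0849.

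All 78 mitochondrial ribosomal protein genes were detected, with a median of 9.84 ± 1.41 and Mrps21 highest at 68.3 ± 18.2. Of 12 translation factors 11 were detected, with a median of 2.6025 ± 0.194 and the elongation factor Tufm highest at 9.65 ± 0.566. Of 17 mitochondrial tRNA synthetases 10 were detected, with a median of 1.80 ± 0.0636. Of 153 genes of these lists tested between the replicates by the exact binomial test, 1 was called, against the 5.58% of all genes. It was Pars2, the prolyl-tRNA synthetase, higher in replicate 2 (3.23% of all genes), with 50 and 88 counts and 0.21 and 0.44 TPM.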

How the data were processed

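Per the labels, 2 libraries of 1 group were made from 1 µg of RNA each. The authors deposited expected counts, unscaled, and TPM, scaled over all features by effective length, per the file headers. They also deposited the posterior SD of a count, used here as a score of allocation error, and the bounds of a TPM credibility interval, a signal that is never negative. Gene tables came from alignments to the transcriptome and read-based transcript tables from the reads, with mm10 and GENCODE M21, per the text deposited beside them. Strandedness, the aligner, the quantifiers and their versions: not given in the sources used here.

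Read-based values were summed per gene. Nuclear copies were found with blastn 2.17.0 between annotated transcripts, and their counts and TPM were added to the message they match. The TPM of a copy rests on its own effective length. Detected means 1 TPM or more in both replicates. Expected counts were rounded before the exact binomial test (SciPy 1.17.1), run with TMM scaling on genes whose mean count was 10 or more (edgeR 4.0.16), and the test was tried on simulated counts. DESeq2 1.42.0 size factors, edgeR's exact test with an assumed coefficient of variation of 0.1 or 0.2, a pseudocount of 1, CPM and other denominators were alternatives. Named were all mitochondrial genes, copies with a mean count of at least 10 and examples among the 4 highest and 2 lowest genes of each list. The mitochondrial genes and all lists were chosen with earlier results of these data known. Sequences are of GENCODE transcripts on mm10.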

Additional observations from a re-analysis of the deposited data

How the results depend on the processing

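The median TPM of the 13 messages, 115 ± 39.5, was 64.2 in the read-based tables and 416 with TPM rescaled to protein-coding genes. mt-Nd6 against the heavy-strand messages, 0.44 on the log2 scale, was 0.22 read-based, 0.22 in CPM, 0.28 with posterior mean TPM, 0.15 without the 6 messages that have a copy holding counts, and reversed to -0.32 with copies. The ribosomal share of mitochondrial counts, 0.187%, was 0.431% read-based and 0.134% with copies, and the mitochondrial share of all counts, 0.263%, was 0.368% with copies. The number of tRNAs with at least 10 counts in both replicates was 0 in the gene tables and 4 read-based. The median log2 ratio of the replicates, 0.73, was 0.27 read-based, a table in which all genes lie lower by that measure. Members called between replicates numbered 3, and 5 read-based, 1 with copies and 1 at an assumed coefficient of variation of 0.2. The causes were not tested beyond what each change of table, scale or member set does by construction. The difference between messages and nuclear partners, 1.32, stayed between 0.99 and 1.68 under its 7 alternatives of table, scale and filter. Posterior mean TPM and leaving out the 6 messages were alternatives chosen after seeing the data.

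Leaving out either replicate gave 86.6 to 143 for the median TPM, 0.78 to 1.87 for the difference from partners, 0.40 to 0.48 for mt-Nd6, 0.174% to 0.2005% for the ribosomal share and 0.190% to 0.337% for the mitochondrial share, and 0 tRNAs each time. The replicate ratio and the calls could not be made from 1 library. No paired analysis was possible because the series has 1 group. Counting error is small for the messages, while the ribosomal and transfer RNAs rest on 1 to 716 counts a gene and library where any were given, so their ratios carry wider error.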
